A study of Mus musculus with 10 samples.

Results

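The second week of culture was examined by comparing the 2 arrays of spermatogonial stem cell cultures at 2 weeks with the 2 arrays at 1 week, 4 of the 10 arrays of the series. The arrays were taken by their titles. In the 1 week and 2 week groups, testis cells of adult DBA/2 mice that had been sorted magnetically for CD9 (an antigen that spermatogonia carry, as do some somatic cells) grew for that time in a medium based on Iscove's MEM. Human FGF2 at 10 ng/ml and rat GDNF at 15 ng/ml were present, with 1% serum. The other groups, used for levels and for the neighbouring steps, were the same sorted cells at 0 weeks and after 3 weeks of culture, and established GS (germline stem) cells of the same strain. Since the labels do not tell whether the arrays of a group go back to different animals or cultures, the p-values cover the spread between arrays alone, and it may be technical.

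Spermatogonial stem cells are the cells of the testis that both renew themselves and give rise to sperm. In the testis they lie on the basement membrane of the seminiferous tubule and receive GDNF and FGF from Sertoli and other somatic cells. In culture, cells sorted from the testis are at first a mixture in which attached somatic cells can spread, make matrix and secrete factors while the germ cells form clusters.

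Of 20174 genes, 10259 changed between 1 and 2 weeks (50.9%), 5167 upward (25.6%) and 5092 downward (25.2%), at an adjusted p under 0.05 from limma. At least 2-fold rises numbered 790 (3.92%) and falls 1945 (9.64%), and at least 4-fold rises 88 (0.436%) and falls 625 (3.1%). Over all genes, the correlation was 0.995 between the 1 week arrays, 0.998 between the 2 week arrays and 0.872 to 0.873 across the groups. The median log2 difference of all genes was 0.06. For each gene, signals are given as those of both 1 week arrays and then of both 2 week arrays. The value after them is the mean log2 signal at 2 weeks minus that at 1 week ± SE, with n = 2 arrays a group. The cells are labelled as spermatogonial stem cell cultures, and the stem cell genes Zbtb16 and Gfra1 were well above the lower quartile of the arrays at both times, with Gfra1 going from 587 and 563 to 1004 and 1012. The lower quartile of the arrays lay at 59.5 to 73.7 and no background level is given, so a fall to such signals is a lower bound.

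**Figure D1:**
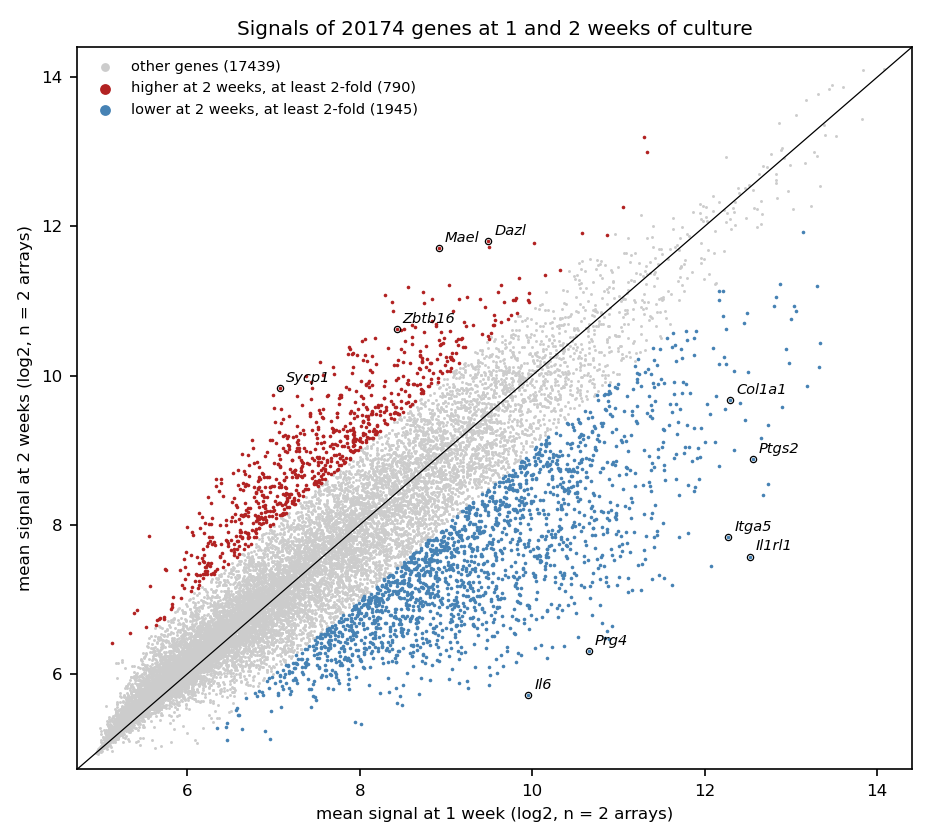
Mean log2 signal at 1 week (horizontal) against 2 weeks (vertical) for 20174 genes, each point a gene, with the line of equal signal. Red points mark the 790 genes at least 2-fold higher and blue points the 1945 at least 2-fold lower at an adjusted p under 0.05; the blue points reach farther from the line than the red ones.

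Genes of undifferentiated spermatogonia rose over the second week: 22 of 31 rose, 4 fell and 5 did not pass, with a median difference of 0.88 against 0.06 for all genes. Zbtb16, a transcription factor needed for self-renewal, went from 339 and 349.6 to 1567 and 1584 (2.19 ± 0.06, adjusted p = 4.8e-09). Epcam, an adhesion protein of spermatogonia, went from 169 and 176 to 789 and 864 (2.26 ± 0.12, adjusted p = 1.9e-07). In both genes the arrays of the groups were far apart. The transcription factor genes Lhx1 and Bcl6b, which respond to GDNF, rose by 2.01 ± 0.10 and 1.80 ± 0.11, and the GDNF receptor genes Ret and Gfra1 by 1.57 ± 0.07 and 0.81 ± 0.08. The 4 members that fell were Upp1 (-1.32), Foxc2 (-0.97), Ccnd2 (-0.48) and Dusp6 (-0.44), of which the last 2 did not pass with quantile scaling (-0.03 and -0.10). The panel gene Cdh1, for the adhesion protein E-cadherin, went from 98.2 and 105 to 116 and 119 (0.21 ± 0.09, adjusted p = 0.091). It passed with quantile or median scaling and in a fit of only the 4 arrays (adjusted p = 0.038, 0.024 and 0.034). Among 16 genes of spermatogonia that differentiate there were 9 rises, 3 falls and 4 that did not pass (median 0.36). The falls were Ccnd1 (-1.89), Crabp1 (-1.66) and Rarg (-0.76). Cd9, whose protein was the target of the sort, fell from 667 and 692 to 457 and 425 (-0.62 ± 0.09, adjusted p = 0.00022). In the same comparison 27 of 29 fibroblast and mesenchyme genes fell, and their summed signal was 81958 and 82340.3 on the 1 week arrays and 14165 and 14275 on the 2 week arrays. The part of such cells in the rise of germ cell genes was not tested, and in these bulk samples fewer cells of a type and less RNA per cell cannot be told apart.

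The genes of germ cell RNA regulation rose almost as a whole. Of 32 measured genes of germ cell RNA and piRNA proteins, which silence transposons and control mRNA in germ cells, 29 rose, 1 fell and 2 did not pass, with a median of 1.51. Mael, a piRNA pathway protein, went from 419 and 545 to 3265 and 3407 (2.80 ± 0.12, adjusted p = 5.2e-08), the largest rise of all genes tested. Fkbp6, a co-chaperone of piRNA loading, went from 255 and 268 to 1405 and 1413 (2.43 ± 0.07, adjusted p = 4.8e-09). The RNA-binding protein genes Dazl and Ddx4 rose by 2.32 ± 0.10 and 2.44 ± 0.11. The member that fell was Mybl1, a transcription factor of meiotic piRNA genes, from 278 and 287 to 113 and 122 (-1.27 ± 0.08, adjusted p = 7.8e-07). The arrays of the groups did not overlap in any of these genes, all of which had passed the test, so this is no separate result. Against the sorted cells, Mael stood at 7581 at 0 weeks and 3336 at 2 weeks (group means), and Dazl stood at 1213 and 3573.

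Structural genes of meiotic chromosomes rose at 2 weeks, as did most genes of meiotic recombination. Among synaptonemal complex and meiotic cohesin genes 13 of 15 rose and 2 did not pass (median 1.49). Sycp1, the transverse filament of the complex, went from 120.1 and 149 to 962 and 866 (2.77 ± 0.23, adjusted p = 4.2e-06). The cohesin subunit gene Stag3 went from 260.5 and 267 to 1210 and 1148 (2.16 ± 0.07, adjusted p = 9.5e-09). The cohesin subunit gene Smc1b and 4930447C04Rik rose by 2.04 ± 0.13 and 2.15 ± 0.22. Among genes of meiotic recombination 17 of 23 rose and 6 did not pass (median 0.52). The members with large rises act in repair or chromatin outside meiosis too, such as Hells (2.39 ± 0.20) and Brca2 (1.82 ± 0.10), while the meiotic strand exchange gene Dmc1 rose by 0.81 ± 0.09, from 82.9 and 92.8 to 144 and 164. The difference between the medians of these lists was not tested. Spermatid genes stayed low: 5 of 27 rose, 8 fell and 14 did not pass, and their summed signal was 62164 and 65781 at 0 weeks, 2536 and 2365 at 1 week and 2104 and 2148 at 2 weeks. The shares that rose (18.5%) and fell (29.6%) were not far from those of all genes (25.6% and 25.2%). Prm1, the protamine that packs sperm DNA, went from 495 and 320.4 to 125 and 129 (-1.65 ± 0.17). The members that rose were Zpbp (0.65), Hspa1l (0.54), Tssk3 (0.30), Izumo1 (0.25) and Spaca1 (0.21), the last 3 of which did not pass once single arrays were left out.

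Promoters of a leading germ cell RNA gene and a leading synaptonemal complex gene, picked by the size of their change, are shown. Both promoters hold the E-box CACGTG, whose share in these lists is given further on. They run 5′ to 3′ on the gene's strand from 250 bases before to 50 after the RefSeq start (GRCm38.p6), at chr1:166238695-166238994 and chr3:102936051-102936350, both on the minus strand. Capitals mark every match, on either strand, to the E2F site GCGGGAA, the E-box CACGTG, the CHR element TTTGAA, the CCAAT box, the AP-1 site TGANTCA, the TEAD site GGAATG, the GC box GGGCGG and the CArG box of serum response factor.
Mael: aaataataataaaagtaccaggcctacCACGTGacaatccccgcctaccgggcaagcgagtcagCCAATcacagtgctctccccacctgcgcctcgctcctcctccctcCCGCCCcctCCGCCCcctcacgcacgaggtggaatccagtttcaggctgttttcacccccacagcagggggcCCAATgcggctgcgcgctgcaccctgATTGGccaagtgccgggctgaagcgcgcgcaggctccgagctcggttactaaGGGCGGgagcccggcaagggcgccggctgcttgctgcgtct
Sycp1: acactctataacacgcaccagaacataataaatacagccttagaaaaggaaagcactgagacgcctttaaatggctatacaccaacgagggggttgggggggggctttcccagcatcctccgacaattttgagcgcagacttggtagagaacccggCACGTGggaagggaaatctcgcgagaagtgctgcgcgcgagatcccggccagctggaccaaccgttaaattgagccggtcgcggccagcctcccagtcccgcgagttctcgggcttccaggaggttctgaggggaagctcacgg

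Sex-linked germ cell genes were mixed. Of 29 X-linked spermatogonial genes 14 rose, 3 fell and 12 missed the threshold, and 11 of the rises were at least 2-fold. Nxf2, an mRNA export factor, went from 176 and 197 to 1158 and 1165 (2.64 ± 0.10, adjusted p = 2.4e-08). Taf7l, a germ cell subunit of the TFIID complex, went from 155 and 192 to 954 and 976 (2.49 ± 0.13, adjusted p = 2.0e-07). The deubiquitinase gene Usp26 went from 227 and 245 to 1290 and 1340 (2.48 ± 0.08, adjusted p = 7.6e-09). The X-linked genes of that list that fell, Hprt (-0.92), Magee1 (-0.79) and Rbmx (-0.45), include the housekeeping gene Hprt and the widely expressed Rbmx. Outside that list, the X-linked gene Xist had group means of 52.1 at 0 weeks, 604 at 1 week and 107 in GS cells. Xist fell by 3.32 ± 0.12 on the log2 scale over the second week (adjusted p = 1.8e-08), as the fibroblast genes did. Its 2 week mean was under 73.7, so this fall is a lower bound. Which cells carried Xist, and whether all of them came from the sort, was not tested. Of 10 Y-linked genes 7 rose, 2 fell and 1 did not pass. Rbmy1a1, a germ cell RNA-binding protein, went from 294 and 335 to 2115 and 2208 (2.78 ± 0.18, adjusted p = 7.8e-07), and Uba1y, Sly and Usp9y rose by 2.40 ± 0.09, 2.24 ± 0.31 and 1.34 ± 0.14. Ddx3y went from 334 and 372 to 98.0 and 107 (-1.78 ± 0.13, adjusted p = 2.0e-06). Eif2s3y, the translation factor needed for mouse spermatogonia to divide, went from 298 and 402 to 237 and 231 (-0.57 ± 0.19). The call of Eif2s3y ended with any scaling (-0.32 to -0.53) and once 1 array was left out. Rbmy1a1, Sly and Mageb4 belong to families of near-identical copies, so a probe set may read more than 1 gene. The clusters of Rbmy1a1 gave 2.72 to 2.78, those of Uba1y 1.58 to 2.40 and those of Zfp640 2.27 to 2.79. In other genes named here a second cluster disagreed with the one used. The sign differed for Ccnd2 (0.12 against -0.48) and Hspa1l (-0.0021 against 0.54). The size differed for H2bc4 (-0.08 against -2.31), Rbl1 (0.17 against 1.09), Irf1 (0.26 against 0.88), Zpbp (0.20 against 0.65) and Tet3 (-0.89 against -0.39).

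By position in RefSeq (GRCm38.p6), genes at least 2-fold higher made up 3.92% of all genes tested, 6.72% of 759 genes on X, 6.54% of 734 on chromosome 13 and 4 of 11 on Y. The 11 Y genes, whose largest difference was 2.40, do not include Rbmy1a1, so they differ from the Y-linked list above. The share at least 2-fold lower was also above that of all genes (9.64%) on chromosome 13 (13.1%) and X (10.8%). Passing rises of any size made up 21.1% of the genes tested on X, against 25.6% of all genes tested. The lowest share of rises of at least 2-fold among the chromosomes was 2.29%, of 1704 genes on chromosome 7. The chromosome 13 genes at least 2-fold higher included Ddx4 (2.44), the cyclin gene Ccnb1 (2.24), the zinc finger gene Zfp640 (2.79) and histone genes of the large cluster there, among them H2ac1 (1.91), H2bc1 (1.84) and H1f1 (1.79), which were singled out after their values were seen. Other histone genes on that chromosome were at least 2-fold lower: H2bc4 (-2.31), H1f2 (-1.59), H3c4 (-1.27) and H2ac6 (-1.16). A second cluster of H2bc4 gave only -0.08. Of 342 genes named Zfp with a number, a name given to zinc finger proteins, 90 rose, 55 fell and 197 did not pass (median 0.09). Genes on a chromosome are not independent, and no test was made of these shares.

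**Figure D2:**
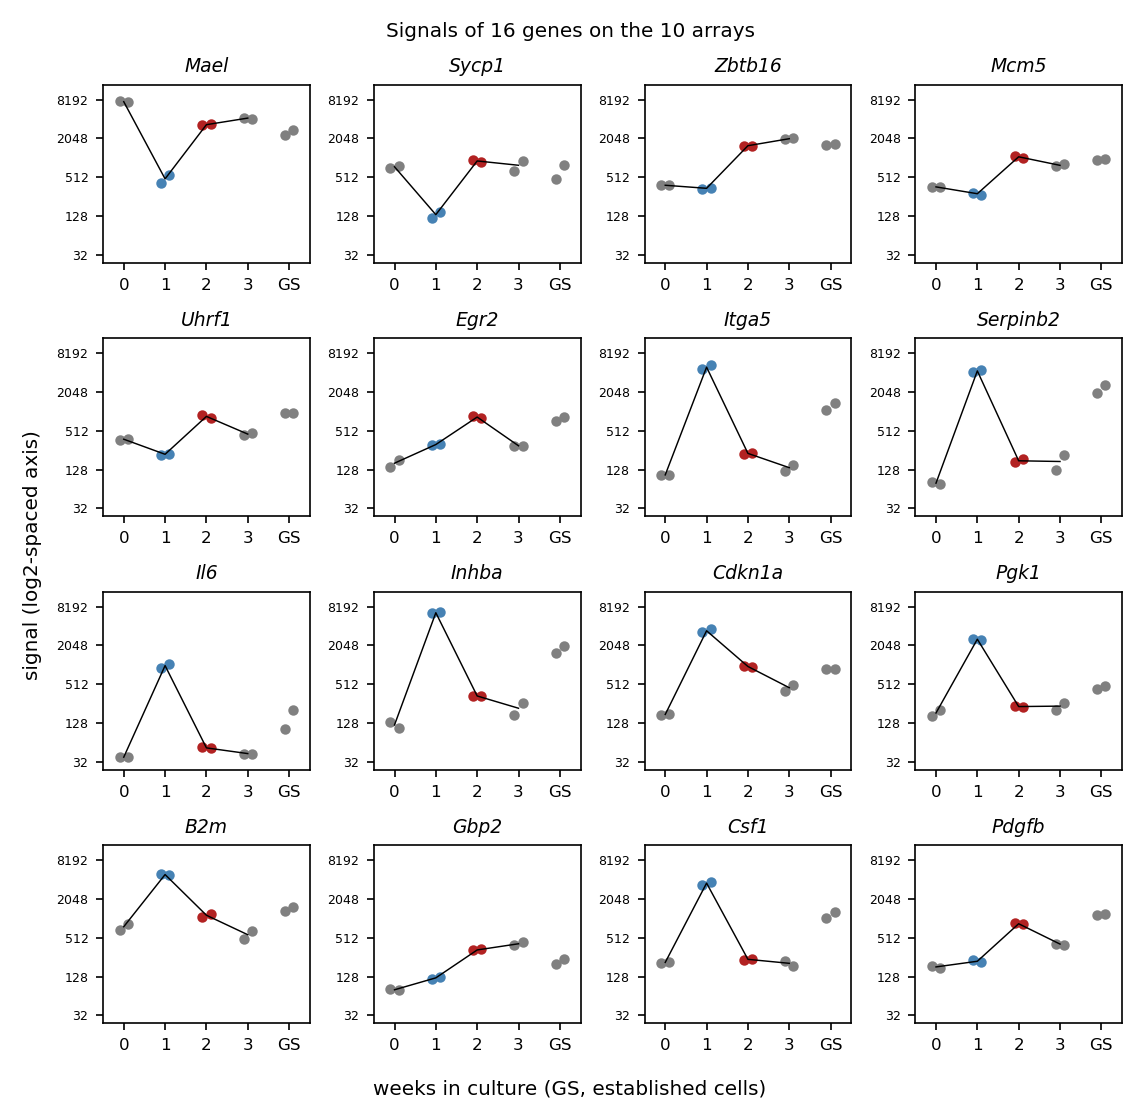
Signal (vertical, log2-spaced axis) of 16 genes on each of the 10 arrays, by weeks in culture and for established GS cells (horizontal); points are arrays, blue for 1 week and red for 2 weeks, and the line joins the group means of 0 to 3 weeks. All 16 genes passed the test, so the lack of overlap between the points of 1 and 2 weeks is no separate result. Mael, Sycp1, Zbtb16, Mcm5, Uhrf1, Egr2, Gbp2 and Pdgfb are higher at 2 weeks and the other 8 lower.

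Genes of DNA replication and chromosome segregation rose with few exceptions. Among genes of replication licensing and the fork 45 of 48 rose, 28 of them at least 2-fold, and 3 did not pass (median 1.15). Pole, the catalytic subunit of a leading strand polymerase, went from 279 and 287 to 1247 and 1220 (2.12 ± 0.07, adjusted p = 1.1e-08). The helicase gene Mcm5 went from 294 and 274 to 1106 and 1014 (1.90 ± 0.07, adjusted p = 2.4e-08). Among kinetochore and spindle checkpoint genes 41 of 47 rose, 2 fell and 4 did not pass (median 1.31). Sgo2a, which protects cohesion at centromeres, went from 138 and 134 to 766 and 738 (2.46 ± 0.09, adjusted p = 1.5e-08), and the checkpoint kinase gene Bub1 and the kinase gene Aurkb rose by 2.40 ± 0.12 and 1.83 ± 0.07. The 2 falls were Cenpb (-0.46) and Mis12 (-0.29), neither of which passed in all fits that left out an array. Of 32 Fanconi and homologous recombination genes 27 rose and 5 did not pass (median 0.93). Fancd2 went from 108 and 99.4 to 373 and 367 (1.83 ± 0.10).

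Nucleotide synthesis was divided. Of 30 genes 18 rose, 5 fell and 7 did not pass. Rrm1, the large subunit of ribonucleotide reductase, went from 473 and 534 to 1441 and 1463 (1.53 ± 0.11, adjusted p = 1.1e-06). The small subunit gene Rrm2 went from 283 and 291 to 284 and 273 (-0.04 ± 0.08, adjusted p = 0.72). The arrays of Rrm2 overlapped, and those of Rrm1 did not. The members that fell were Ctps2 (-1.31), Hprt (-0.92), Adss (-0.69), Mthfd2 (-0.50) and Impdh1 (-0.42), of which Mthfd2 did not pass with quantile scaling (-0.20). Of 35 ribosome biogenesis genes 16 rose, 3 fell and 16 did not pass, with Heatr1 (1.15 ± 0.07) and Polr1b (1.12 ± 0.07), a subunit of RNA polymerase I, the largest rises. The members that fell were Polr1e (-0.40), Polr1a (-0.32) and Nop2 (-0.20). With quantile scaling Polr1a (-0.07) and Nop2 (0.088) did not pass.

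G1 control genes were divided, at times between paralogs. Of 30 G1 cyclin, E2F and inhibitor genes 11 rose, 11 fell and 8 did not pass. Among the MYC genes, Myc went from 463 and 559 to 98.5 and 97.0 (-2.38 ± 0.11, adjusted p = 8.0e-08). In contrast, Mycn went from 113 and 107 to 242 and 242 (1.14 ± 0.09, adjusted p = 2.8e-06). The cyclin D kinase gene Cdk6 went from 1325 and 1262 to 267 and 229 (-2.39 ± 0.08, adjusted p = 1.3e-08), and the cyclin gene Ccnd1 fell by 1.89 on the log2 scale. The pocket protein genes Rb1 and Rbl1 rose by 1.08 ± 0.18 and 1.09 ± 0.09, and E2f1 rose by 0.69 ± 0.08. The 3 inhibitor genes named here fell. Cdkn1a went from 3242 and 3650 to 970.2 and 957 (-1.84 ± 0.10, adjusted p = 2.4e-07). Cdkn2b went from 429 and 381 to 169 and 178 (-1.22 ± 0.09) and Cdkn2a from 326 and 318 to 205 and 205 (-0.65 ± 0.10). p53 target genes fell in 20 of 29 cases, 3 rose and 6 did not pass (median -1.05). Plk2 and Perp fell from 997 and 1112 to 158 and 146 and from 483 and 586 to 84.8 and 77.5 (-2.79 ± 0.14 and -2.71 ± 0.15). The members that rose were Ckap2 (0.85) and Gtse1 (0.28), which are also mitotic proteins, and Tigar (0.38). The fibroblast list, at 27 falls of 29, moved with the p53 list, and its part was not tested.

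Promoters of the leading replication and kinetochore genes that had an entry are shown in the same frame and capitals. They lie at chr6:88898731-88899030 on the minus strand and chr1:57985090-57985389 on the plus strand. The first holds a CHR element, a CCAAT box and GC boxes. The second holds a CCAAT box and, close to the start and on the opposite strand, the E2F site. Mcm2, a subunit of the replicative helicase, went from 355 and 374 to 1588 and 1568.
Mcm2: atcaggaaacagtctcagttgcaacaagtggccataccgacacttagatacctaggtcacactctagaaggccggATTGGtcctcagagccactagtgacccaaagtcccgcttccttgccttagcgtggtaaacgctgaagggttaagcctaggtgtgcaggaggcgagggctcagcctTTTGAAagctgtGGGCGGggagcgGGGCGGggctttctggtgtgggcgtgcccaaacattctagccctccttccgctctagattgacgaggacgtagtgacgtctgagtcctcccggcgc
Sgo2a: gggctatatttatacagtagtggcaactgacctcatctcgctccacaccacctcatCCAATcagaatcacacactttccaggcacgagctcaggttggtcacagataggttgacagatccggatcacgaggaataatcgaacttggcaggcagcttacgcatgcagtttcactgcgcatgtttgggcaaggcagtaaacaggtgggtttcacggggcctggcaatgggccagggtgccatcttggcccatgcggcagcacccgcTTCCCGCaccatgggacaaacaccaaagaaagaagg

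Chromatin regulators that silence germ cell genes and transposons rose in 21 of 31 cases, 4 fell and 6 did not pass (median 0.56). Hells, a chromatin remodeller for DNA methylation, went from 160.4 and 188 to 931 and 889 (2.39 ± 0.20, adjusted p = 4.0e-06). Scml2, a Polycomb protein of the germ line, went from 235 and 247 to 1244 and 1269 (2.38 ± 0.11, adjusted p = 5.5e-08). Uhrf1, which brings the maintenance methyltransferase to new DNA, went from 219 and 222 to 907 and 798 (1.95 ± 0.08). Dnmt1, that methyltransferase, went from 373 and 392 to 1160 and 1134 (1.59 ± 0.08). In all of these the 2 week arrays lay above the 1 week arrays. The demethylation gene Tet2 went the other way, from 244 and 221 to 75.2 and 59.1 (-1.80 ± 0.12, adjusted p = 7.9e-07). The other falls were Max (-0.68), Tet3 (-0.39) and Ring1 (-0.25). Tet3 did not pass with quantile scaling (-0.17), and Ring1 did not pass there or when any 1 array was left out.

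Genes of fibroblasts and mesenchyme, whose cells attach, spread and lay down matrix in culture, fell with few exceptions. Among fibroblast and mesenchyme genes 27 of 29 fell, 26 of them at least 2-fold, and 2 did not pass (median -2.62). Prrx1, a transcription factor of mesenchyme, went from 2890 and 2995 to 159 and 153 (-4.24 ± 0.12, adjusted p = 4.9e-09). Pdgfrb, a PDGF receptor, went from 1886 and 1810 to 157 and 145 (-3.61 ± 0.09, adjusted p = 3.3e-09). Col1a1, a chain of the main collagen of connective tissue, went from 5099 and 4937 to 831 and 804 (-2.62 ± 0.09, adjusted p = 1.0e-08). In these genes the 2 week arrays lay between those of 0 weeks and 1 week or close to the former: group means at 0 and 2 weeks were 137 and 156 for Prrx1 and 523 and 818 for Col1a1. In established GS cells the same genes stood at 674 and 1717, above 2 weeks in both.

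Matrix assembly and turnover fell together. Among matricellular and crosslinking genes 35 of 36 fell and 1 did not pass (median -2.40), and among matrix proteases and their inhibitors 28 of 31 fell and 3 did not pass (median -2.13). Prg4, a lubricating proteoglycan, went from 1416 and 1805 to 80.4 and 77.5 (-4.34 ± 0.15, adjusted p = 1.4e-08). Loxl2, a crosslinking oxidase of collagen, went from 2438 and 2468 to 137 and 142 (-4.13 ± 0.09, adjusted p = 1.9e-09). Tnc, tenascin C, went from 9206 and 9368 to 880.4 and 970.3 (-3.33 ± 0.13). Prg4 ended near the lower quartile of the arrays, so its fall is a lower bound, and Tnc remained well above it. Proteases and inhibitors fell alike. The collagenase gene Mmp13 (-2.46 ± 0.08) and the protease gene Adam19 (-3.03 ± 0.10) fell with the metalloprotease inhibitor genes Timp3 (-4.18 ± 0.13) and Timp1 (-2.81 ± 0.30). Timp3 went from 6900 and 6696 to 374 and 376.

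Genes of adhesion to that matrix mostly fell. Of 39 integrin and focal adhesion genes 29 fell, 2 rose and 8 did not pass (median -1.63). Itga5, the alpha chain of the fibronectin receptor, went from 4587 and 5305 to 225 and 230.5 (-4.44 ± 0.13, adjusted p = 6.4e-09). Cav1, the coat protein of caveolae, went from 3006 and 3305 to 146 and 146 (-4.43 ± 0.09, adjusted p = 1.9e-09). The laminin-binding integrin gene Itga3 rose, from 168 and 163 to 278 and 320 (0.85 ± 0.10, adjusted p = 5.9e-05), and so did the kinase gene Ptk2 (0.33), whose call ended when 1 array was left out (adjusted p up to 0.13). Among actin stress fibre genes and targets of serum response factor 27 of 29 fell and 2 did not pass (median -1.63). Tagln, an actin-binding protein of contractile cells, went from 2193 and 2365 to 144 and 134 (-4.03 ± 0.09, adjusted p = 1.9e-09). Targets of YAP and TEAD, which respond to cell spreading, fell in 23 of 28 cases, 2 rose and 3 did not pass (median -1.65). Ankrd1 went from 898 and 967 to 77.8 and 74.8 (-3.61 ± 0.07, adjusted p = 1.5e-09), and Ccn2 and Ccn1 fell by 3.34 ± 0.08 and 3.19 ± 0.13 on the log2 scale, while Tead2 (0.61) and Ajuba (0.47) rose. As for all lists of this and the next paragraphs, fibroblast genes fell in the same comparison by the sums given above, and their part was not tested.

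Part of the epithelial junction genes rose while the mesenchymal ones fell: 16 of 37 rose, 2 fell and 19 did not pass (median 0.21). Esrp1, a splicing factor of epithelia, went from 124 and 125 to 553 and 576 (2.18 ± 0.13, adjusted p = 4.3e-07), and the protease inhibitor genes Spint1 and Spint2 rose by 1.55 ± 0.09 and 1.20 ± 0.07. The tight junction genes Tjp1, Ocln and Marveld2 rose by 0.94 ± 0.09, 1.03 ± 0.08 and 1.19 ± 0.12, and the members that fell were Jup (-0.89) and Krt19 (-0.36).

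Pericellular proteolysis and clotting genes, which fibroblasts express in wounds and in culture, fell in 21 of 27 cases, 20 of them at least 2-fold; 1 rose and 5 did not pass (median -2.50). Serpinb2, an inhibitor of plasminogen activators, went from 4135 and 4515 to 165 and 185 (-4.63 ± 0.21, adjusted p = 6.4e-08). The activator itself, Plau, and its receptor, Plaur, fell as well (-3.03 ± 0.12 and -2.24 ± 0.11). Of the clotting genes, the initiator F3, tissue factor, went from 1495 and 1600 to 184 and 178 (-3.09 ± 0.08). The anticoagulant receptor Thbd, thrombomodulin, went from 1939 and 1858 to 82.7 and 94.0 (-4.43 ± 0.11, adjusted p = 3.2e-09). Activators and inhibitors thus fell on the same arrays, and the member that rose was F2rl1, a protease-activated receptor, from 153 and 166 to 228 and 268 (0.64 ± 0.09, adjusted p = 0.00018).

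Of 35 inflammatory genes of stroma 29 fell, the other 6 not passing (median -2.04). Il1rl1, the receptor of interleukin 33, went from 5540 and 6220 to 182 and 198 (-4.95 ± 0.14, adjusted p = 4.6e-09), the largest measured fall of all genes tested. Its group means were 94.7 (0 weeks), 149.8 (3 weeks) and 2136 (GS cells). The cytokine gene Il6 went from 917 and 1071 to 53.8 and 51.6 (-4.23 ± 0.24, adjusted p = 2.8e-07), at 2 weeks below the lower quartile of every array. Ptgs2, the inducible prostaglandin synthase, went from 6006 and 6055 to 460.4 and 482 (-3.68 ± 0.12, adjusted p = 1.0e-08), and the receptor genes Osmr and Il1r1 fell by 3.24 ± 0.15 and 3.08 ± 0.09 on the log2 scale. Of 32 chemokine genes 20 fell, 1 rose and 11 did not pass (median -0.34). The falls included Cxcl5 (-2.69 ± 0.13) and Ccl2, an attractant of monocytes, from 4078 and 4482 to 695 and 732 (-2.58 ± 0.11, adjusted p = 4.2e-08). The chemokine gene that rose was Ccl17 (0.38), whose call ended when single arrays were left out (adjusted p up to 0.23).

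Promoters of the leading genes of 3 falling lists are shown to set against those that rose, at chr15:103366742-103367041 on the minus strand and chr1:107511173-107511472 and chr1:40429320-40429619 on the plus strand. The adhesion gene has GC boxes, the inhibitor of plasminogen activators an AP-1 site, a CCAAT box and CHR elements, and the cytokine receptor none of the motifs searched in this window.
Itga5: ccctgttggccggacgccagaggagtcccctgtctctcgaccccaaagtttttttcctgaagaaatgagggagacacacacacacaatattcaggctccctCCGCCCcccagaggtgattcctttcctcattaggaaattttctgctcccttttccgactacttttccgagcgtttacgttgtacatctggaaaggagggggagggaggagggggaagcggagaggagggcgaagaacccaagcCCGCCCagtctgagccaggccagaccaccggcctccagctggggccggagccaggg
Serpinb2: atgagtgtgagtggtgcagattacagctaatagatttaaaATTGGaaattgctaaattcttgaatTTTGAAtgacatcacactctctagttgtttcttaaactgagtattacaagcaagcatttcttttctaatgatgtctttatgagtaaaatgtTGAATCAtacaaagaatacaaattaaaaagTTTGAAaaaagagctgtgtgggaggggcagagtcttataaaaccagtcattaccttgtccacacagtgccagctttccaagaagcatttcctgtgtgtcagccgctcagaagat
Il1rl1: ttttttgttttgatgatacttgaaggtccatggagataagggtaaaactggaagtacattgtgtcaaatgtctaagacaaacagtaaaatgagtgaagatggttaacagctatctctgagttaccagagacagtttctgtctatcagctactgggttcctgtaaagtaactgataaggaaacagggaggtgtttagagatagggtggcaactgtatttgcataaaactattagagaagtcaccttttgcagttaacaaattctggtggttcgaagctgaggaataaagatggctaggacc

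Growth factor genes that somatic cells can supply to germ cells fell: 34 of 45 fell, 2 rose and 9 did not pass (median -1.34). Inhba, the activin A subunit, went from 6494 and 6628 to 334 and 338 (-4.29 ± 0.20, adjusted p = 6.4e-08). Csf1, which acts on macrophages and on spermatogonial stem cells in mice, went from 3395 and 3788 to 231 and 242 (-3.92 ± 0.13, adjusted p = 8.5e-09). The ligands added to the medium had own transcripts that fell too: Fgf2 went from 230.2 and 241 to 61.0 and 60.6 (-1.95 ± 0.07, adjusted p = 2.0e-08). Gdnf went from 178 and 169 to 105 and 107 (-0.71 ± 0.10, adjusted p = 0.00018). The signals of Fgf2 at 2 weeks lay within the range of the lower quartiles. Kitl, the ligand of the differentiation receptor Kit, went from 325 and 485 to 75.1 and 85.4 (-2.31 ± 0.16, adjusted p = 1.1e-06), while Kit rose by 1.12 ± 0.08. PDGF ligand and receptor genes went opposite ways: Pdgfb went from 229 and 212 to 856 and 828 (1.93 ± 0.07, adjusted p = 1.4e-08), and Pdgfra and Pdgfrb fell by 2.56 ± 0.08 and 3.61 ± 0.09 on the log2 scale. Fgf9 (0.36) was the other riser, and its call ended when single arrays were left out (adjusted p up to 0.14).

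Genes that respond to GDNF and FGF signalling divided evenly, with 12 of 33 higher, 12 lower and 9 not passing. The receptor gene Fgfr1 went from 3022 and 2844 to 556 and 548 (-2.41 ± 0.08, adjusted p = 1.0e-08), and the feedback inhibitor genes Dusp4 and Spry2 fell by 2.48 ± 0.13 and 2.30 ± 0.08 on the log2 scale. Id2 and Id3, inhibitors of differentiation, fell from group means of 775 to 118 and from 1489 to 288 (-2.71 ± 0.25 and -2.37 ± 0.09). Among the members that rose were the transcription factor gene Etv5 (0.70 ± 0.07) and Nanos2 (0.68 ± 0.09), an RNA-binding protein of undifferentiated spermatogonia, beside Lhx1, Bcl6b, Ret and Gfra1 named above. Among immediate early genes 16 of 25 fell, 3 rose and 6 did not pass (median -1.24). The orphan nuclear receptor gene Nr4a2 went from 1596 and 1516 to 147 and 138 (-3.44 ± 0.08, adjusted p = 2.4e-09). The 3 members that rose were all of the EGR family of growth factor-induced transcription factors. Egr2 went from 309.8 and 315 to 864 and 801 (1.41 ± 0.11, adjusted p = 2.6e-06), and Egr1 (0.79 ± 0.08) and Egr3 (0.44 ± 0.10) rose by less.

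Glycolysis genes fell in 18 of 25 cases, 3 rose and 4 did not pass (median -0.85). Pgk1 went from 2608 and 2492 to 233 and 228 (-3.47 ± 0.14, adjusted p = 2.6e-08). Ldha, lactate dehydrogenase A, went from 3126 and 3028 to 620.1 and 672 (-2.25 ± 0.08, adjusted p = 1.3e-08). The glucose transporter gene Slc2a1 went from 3765 and 3496 to 864 and 882 (-2.06 ± 0.09, adjusted p = 4.0e-08). Of the 3 that rose, the aldolase gene Aldoc went from 147 and 159 to 412 and 386 (1.38 ± 0.09, adjusted p = 5.6e-07). The transporter gene Slc2a3 went from 219 and 198 to 492 and 490.4 (1.24 ± 0.07, adjusted p = 4.3e-07), and Pdk1, which limits pyruvate entry to mitochondria, rose by 1.07 ± 0.07. Slc2a1 and Slc2a3 thus went in opposite directions on the same arrays. Cholesterol synthesis genes split, with 10 of 25 higher, 9 lower and 6 not passing. Fdft1, squalene synthase, rose by 1.20 ± 0.08 and Sc5d, a desaturase of a late step, fell by 0.96 ± 0.08 on the log2 scale.

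Interferon and antigen presentation genes moved in both directions. Of 37 interferon-stimulated genes 20 fell, 7 rose and 10 did not pass (median -0.34). Ifitm3, an antiviral membrane protein, went from 5476 and 5379 to 811 and 773 (-2.78 ± 0.20, adjusted p = 1.7e-06), and the RNA sensor gene Ddx58 fell by 1.37 ± 0.08 on the log2 scale. The guanylate-binding protein gene Gbp2 went from 116 and 128 to 325 and 336 (1.44 ± 0.09, adjusted p = 7.0e-07), Gbp3 rose by 1.41 ± 0.10, and Irf1, a transcription factor of the interferon gamma response, rose by 0.88 ± 0.09. Cd274, the gene of PD-L1, went from 136 and 124 to 288 and 275 (1.11 ± 0.09, adjusted p = 3.3e-06). Among MHC class I and processing genes 8 of 18 rose, 5 fell and 5 did not pass. Thus 44.4% rose and 27.8% fell, against 25.6% and 25.2% of all genes, so the share that fell was near that of all genes. B2m, the common light chain, went from 4918 and 4831 to 1079 and 1202 (-2.10 ± 0.15, adjusted p = 1.5e-06). The heavy chain gene H2-K1 went from 851 and 855 to 419.8 and 394 (-1.07 ± 0.07, adjusted p = 1.1e-06). In contrast, the immunoproteasome subunit gene Psmb10 went from 357 and 299 to 677 and 704 (1.08 ± 0.13, adjusted p = 5.8e-05). The peptide-trimming protease gene Erap1 went from 146 and 161 to 299.8 and 269 (0.89 ± 0.14, adjusted p = 0.00051). B2m and H2-K1 were thus lower and Psmb10 and Erap1 higher at 2 weeks, while other processing genes fell, as named below. The proteasome activator genes Psme1 and Psme2 rose by 0.67 ± 0.07 and 0.86 ± 0.08. The other falls were Calr (-0.70), Pdia3 (-0.62) and Tap1 (-0.32). With quantile scaling Pdia3 (-0.15) and Tap1 (-0.13) did not pass, and Tap1 did not pass in 3 of the fits that left out an array.

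Most markers of the other testis cells did not pass. Of 24 Sertoli cell genes 1 rose, 5 fell and 18 did not pass, with summed signals of 3289 and 3349.6 at 1 week and 2849.9 and 2914 at 2 weeks. Kitl is given above. Clu and Sox9 fell by 1.27 ± 0.15 and 1.22 ± 0.08 on the log2 scale. Inhbb (-0.71) and Inha (-0.40) fell by less. The iron transport gene Trf rose from 204 and 208 to 610.3 and 636 (1.60 ± 0.07, adjusted p = 4.3e-08). Of 13 Leydig cell genes 2 fell, Cyp11a1 (-1.46) and Star (-1.05), and 11 did not pass. The summed signal was 1429 and 1397 at 1 week and 1205 and 1193 at 2 weeks, against 8377 and 8458 at 0 weeks. Of 14 peritubular and smooth muscle genes 9 fell, 1 rose and 4 did not pass, and the summed signal went from 10286 and 10726 to 2307 and 2315. Of 22 macrophage genes 18 did not pass, 3 fell (Cd53 -1.42, Cd14 -0.73 and Csf1r -0.36) and 1 rose (Mrc1 0.22). Neither Csf1r nor Mrc1 passed in any fit that left out an array. The macrophage sums were 2449 and 2424 at 1 week and 2527 and 2543 at 2 weeks, and the endothelial sums 3258 and 3173, then 2176 and 2218. Among 17 endothelial genes Eng (-2.67), Flt1 (-1.59) and Emcn (-0.32) fell and Erg (1.65) rose, the call of Emcn ending with median scaling (-0.28), and 13 did not pass. Among 19 lymphocyte genes Cd3e (-0.87) fell, Cd2 (0.55) rose and 17 did not pass, with summed signals of 1371 and 1218 at 1 week and 1295 and 1284 at 2 weeks. Many of these markers had means under 73.7, the highest lower quartile of the arrays, where a fall may not show. At 1 and 2 weeks they were 13 and 14 macrophage genes, 15 and 14 lymphocyte genes, and 7 and 7 Leydig cell genes. Of Sertoli cell genes 6 and 8 lay there, and of endothelial genes 4 and 4.

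**Figure D3:**
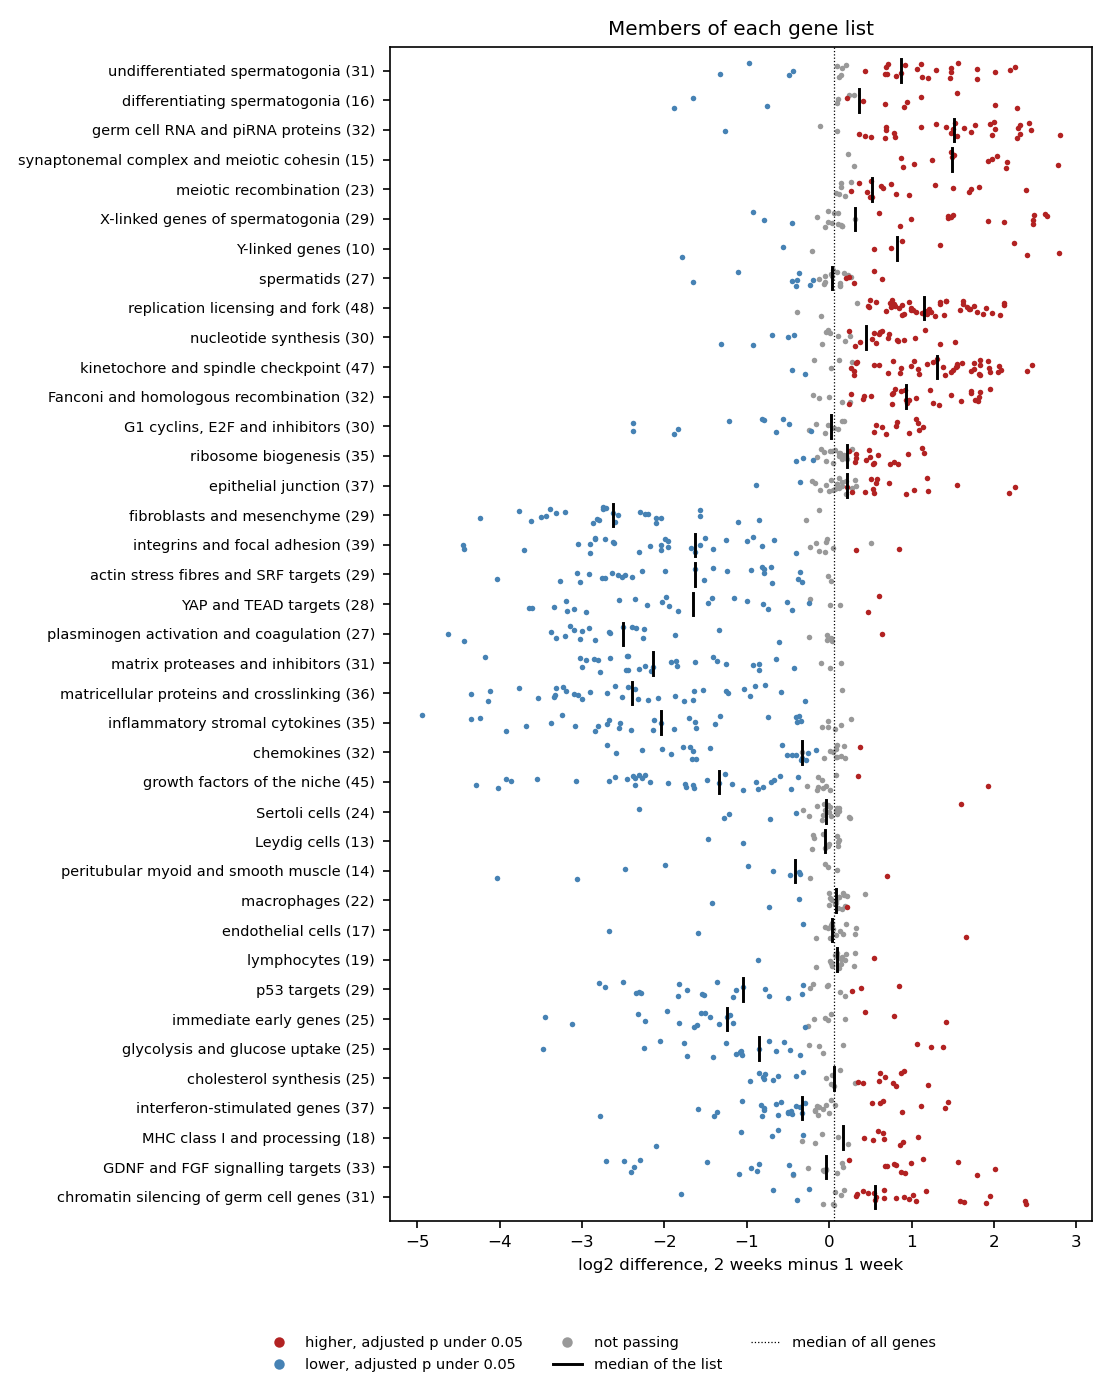
Log2 difference of 2 weeks minus 1 week (horizontal) for every measured member of 39 gene lists (vertical, number of members in brackets); points are genes, coloured by the test, black bars are list medians and the dotted line is the median of all genes. Stromal, matrix, coagulation and cytokine lists lie to the left and germ cell, replication and kinetochore lists to the right.

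The neighbouring steps share arrays with this one, the first week ending and the third week beginning on arrays used here, so the steps are given side by side and their difference was tested within the same fit. In the first week 11664 genes changed (57.8%), and in the third 4875 (24.2%), of which 11 rose (0.0545%) and 132 fell (0.654%) by at least 2-fold. The change of the second week differed from that of the third in 6546 genes (32.4%), more upward in 3215 (15.9%) and more downward in 3331 (16.5%), and from that of the first in 12064 (59.8%). Against the third week, the second was more upward in 45 of 48 replication genes, 41 of 47 kinetochore genes, 27 of 32 germ cell RNA genes and 13 of 15 synaptonemal complex genes, and more downward in 26 of 29 fibroblast genes and 32 of 36 matricellular genes. Zbtb16, Mael and Prrx1 show what lies behind these counts: Zbtb16 changed by 2.19 in the second week and 0.36 in the third, Mael by 2.80 and 0.34, of which the latter did not pass, and Prrx1 by -4.24 and -0.45. For Bcl6b and Lhx1 the third week turned the direction, with 1.80 and then -2.08 for Bcl6b and 2.01 and then -1.56 for Lhx1. Mmp13 and Lox fell in both weeks, by 2.46 and 2.20 and by 3.31 and 1.71 on the log2 scale.

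RefSeq promoters (GRCm38.p6, first entry per gene, 300 bases) were found for 14938 of the genes tested, 614 of those at least 2-fold higher and 1481 of those at least 2-fold lower. The E2F site was in 14.8% of the promoters of higher genes, 5.9% of lower genes and 6.4% of all, and in 37.5% of 40 replication promoters. The CHR element was in 21.7%, 10.3% and 15.2% in the same order, and in 48.8% of 41 kinetochore promoters. The CCAAT box was in 68.3% of the kinetochore promoters and 38.3% of all. The E-box was in 11.6%, 9.3% and 8.4% in the same order, in 24.2% of 66 genes at least 4-fold higher, and in 40.0% of 25 germ cell RNA promoters and 38.5% of 13 synaptonemal complex promoters.

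Among the falling lists, the AP-1 site was in 38.9% of 18 plasminogen and coagulation promoters and 33.3% of 27 inflammatory promoters, against 6.9% of all and 6.1% of all lower genes. In the other falling lists that were searched it was in 4.5% (matricellular), 5.3% (fibroblast), 8.0% (actin) and 10.0% (integrin). Promoters of further falling lists, such as the matrix protease and immediate early genes, were not searched as lists. Among 25 actin and serum response factor promoters the CArG box was in 8 (1.5% of all promoters) and the TEAD site in 36.0% (13.2% of all). The GC box was in 68.9% of higher and 67.7% of lower promoters, against 49.8% of all. Median GC content was 61.0, 62.0 and 57.5% in the same order. The lists are small, some were written around the factor that binds the motif, promoters of paralogs resemble each other, and a match is not a bound site.

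**Figure D4:**
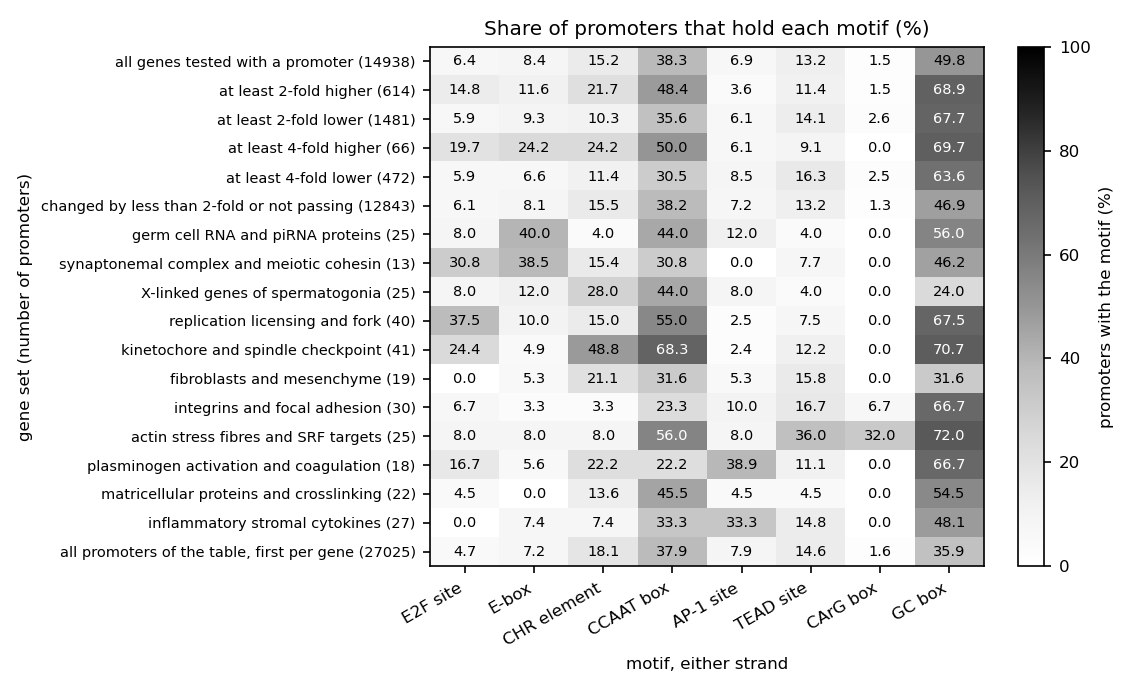
Share of RefSeq promoters (%, shade and printed value) that hold each of 8 motifs on either strand (horizontal) in each gene set (vertical, number of promoters in brackets). The E2F site reaches 37.5% in replication promoters, the CHR element 48.8% in kinetochore promoters, the E-box 40.0% in germ cell RNA promoters and the AP-1 site 38.9% in coagulation promoters.

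The array also measures miRNA genes, through probes to the hairpin or its primary transcript; mature miRNAs were not measured. The imprinted region between Dlk1 and Dio3 on chromosome 12 encodes a cluster of miRNAs that are expressed from the maternal allele together with the long noncoding RNA Meg3. It was singled out after the values were seen. Of its 36 measured miRNA genes 27 fell, 0 rose and 9 did not pass, whereas over all 305 miRNA genes 44 fell, 47 rose and 214 did not pass. No test was made of this difference. The genes lie in 1 region and may share transcripts, so they are not independent. Mature sequences of the genes of this cluster with the largest falls are shown 5′ to 3′ from RefSeq, with the seed, bases 2 to 8, in capitals.
miR-382-5p: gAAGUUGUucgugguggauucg
miR-380-3p: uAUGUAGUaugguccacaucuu
miR-323-3p: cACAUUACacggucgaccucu
miR-134-5p: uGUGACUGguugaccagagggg
miR-377-3p: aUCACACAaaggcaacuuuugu
miR-369-3p: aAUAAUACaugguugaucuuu

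Mir382 went from 214 and 303 to 40.6 and 39.8 (-2.67 ± 0.14, adjusted p = 1.3e-07). Mir134 went from 542 and 513 to 163 and 183 (-1.61 ± 0.22, adjusted p = 0.00014). Mir380, Mir323, Mir377 and Mir369 fell by 1.81 ± 0.14, 1.66 ± 0.10, 1.35 ± 0.11 and 1.34 ± 0.07 on the log2 scale. The 6 seeds shown all differ. In 25 of the 36 genes the 2 week mean was under 73.7, the highest lower quartile of the arrays, so falls among these 25 are lower bounds, and Mir134 was not one of them. Of the 27 genes that fell, 12 were under that level at 1 week as well, where a call rests on dim signals at both times. Mir382 had group means of 40.4 (0 weeks), 40.3 (3 weeks) and 47.8 (GS cells), near its 2 week level. Meg3 went from 2742 and 2583 to 268 and 279 (-3.28 ± 0.08, adjusted p = 2.4e-09). Dlk1, the paternally expressed gene of the region, went from 1452 and 1269 to 353 and 337 (-1.98 ± 0.13, adjusted p = 8.3e-07). Maternally and paternally expressed genes of the region thus fell on the same arrays, with the fibroblast genes, whose part was not tested.

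**Figure D5:**
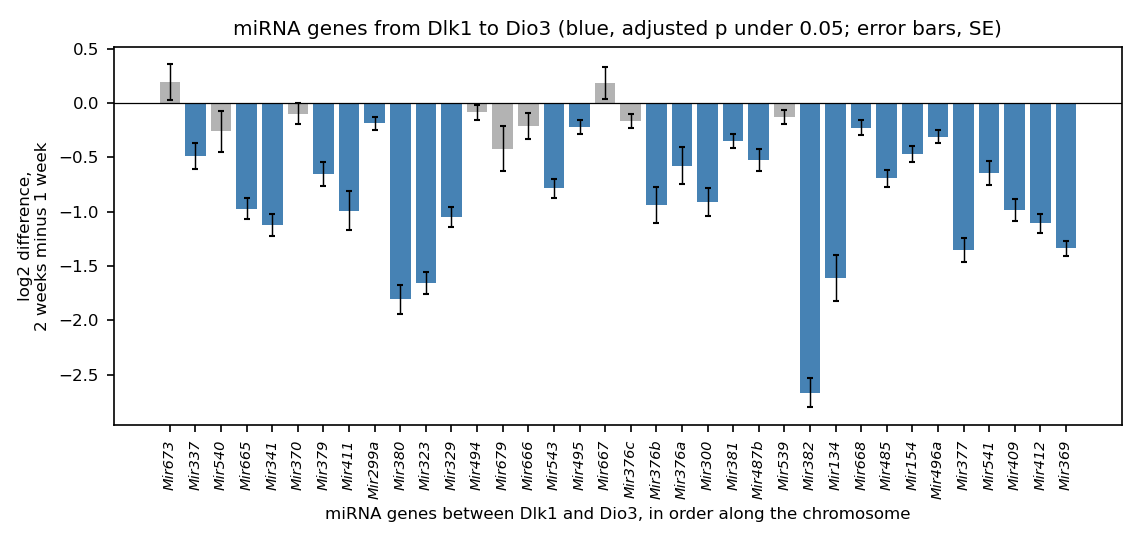
Log2 difference of 2 weeks minus 1 week (vertical, bars ± SE, n = 2 arrays a group) for 36 miRNA genes in their order along chromosome 12 from Dlk1 to Dio3 (horizontal). Blue bars passed at an adjusted p under 0.05 and grey bars did not; all 27 blue bars point down, the longest at -2.67 for Mir382.

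Outside that region, Mir145a, a miRNA gene of smooth muscle and fibroblasts, went from 262 and 289 to 55.7 and 60.4 (-2.25 ± 0.11, adjusted p = 1.1e-07), and its neighbour Mir143 fell by 0.59 ± 0.11 on the log2 scale. Mir27b and Mir27a lie in different clusters of the genome, share a seed, and fell by 1.14 ± 0.10 and 0.79 ± 0.09 on the log2 scale, Mir27b from 88.6 and 104 to 44.7 and 42.6. Mir34a, a p53 target, went from 96.7 and 94.3 to 47.1 and 46.1 (-1.03 ± 0.10, adjusted p = 9.9e-06). The largest rises were in Mir680-1 (1.95 ± 0.23), Mir297b (1.87 ± 0.23) and Mir680-2 (1.81 ± 0.11). Mir301b went from 59.9 and 65.0 to 187 and 186 (1.58 ± 0.08, adjusted p = 1.4e-07). The X-linked Mir465 went from 33.9 and 36.2 to 91.8 and 79.4 (1.29 ± 0.19, adjusted p = 0.0003). These genes, too, were named after their values were seen, and the sequences are shown for the shared seed and for the p53 target.
miR-27a-3p: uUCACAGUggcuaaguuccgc
miR-27b-3p: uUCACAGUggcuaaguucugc
miR-34a-5p: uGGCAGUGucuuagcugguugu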

How the data were processed

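Each sample was 1 Affymetrix Mouse Gene 1.0 ST array, and the 10 arrays form 5 groups of 2 by title. The authors deposited linear intensities per transcript cluster; how arrays were summarised and normalised is not given in the sources used here. Their workbook, whose annotation is of release na32 per the file headers, supplied gene symbols and fold ratios, of which only the symbols were used; its deposited 0 and 3 week means matched the array values within 8.9e-07 of the value.
Of 28856 clusters, 22439 had exactly 1 symbol; 2815 with several and 3602 with none were left out. Symbols were brought to RefSeq (GRCm38.p6) names (17440 current, 2023 updated, 737 kept), and the brightest cluster stood for each of 20174 genes. Chromosomes, promoters and mature miRNAs also came from RefSeq.
The deposited intensities were taken to log2 (floor of 1, never reached) and fitted with limma 3.58.1 in R 4.3.3, 1 mean for each of the 5 groups (residual df 5). Genes passed at a Benjamini-Hochberg adjusted p under 0.05 over all 20174 genes. The number of arrays limits the precision. The fit was also run on simulated data with independent noise and a small share of changed genes. That setting differs from these arrays, so the run does not bear on the counts given here.
Named genes are a fixed panel, the 12 largest rises and falls, up to 4 leading members per list and members that a count of 5 or fewer singles out; other genes, and the miRNA region, were named after their values were seen. A few genes that the rule names are not reported here. Members and lists were chosen with earlier results of these data known. Alternatives were 3 scalings, a filter on dim genes, the mean over clusters, a floor of 32, trended robust moderation, a fit of the 4 arrays alone, each array left out and the replicate number as a block. The correlation of deviations from the group mean between same-numbered arrays was -0.05, so the numbers were not used to pair arrays.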

Additional observations from a re-analysis of the deposited data

How the results depend on the processing

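Of the counts over all genes, those that moved by over 1.5 times did so with the filter on dim genes, which left 10443 genes to test: 3289 rose, and 7855 changed differently in week 2 than in week 1. Leaving out 1 array gave 3826 to 4681 rises, 4399 to 4729 falls, 778 to 831 rises and 1891 to 2012 falls of at least 2-fold, 4443 to 6113 genes whose change in week 2 differed from that in week 3, and 9965 to 11121 from that in week 1. With the replicate number as a block, 5966 genes rose and 5408 fell, 791 and 1945 of them by at least 2-fold, and no count moved by over 1.5 times. The arrays share only a number. Of 39 list medians, 31 moved by more than the spread between arrays with quantile scaling (by -0.12 to 0.40) and 31 with the filter on dim genes (by -1.19 to 1.403, over fewer members). Cyclic loess scaling moved 16, median scaling 13 and leaving out 1 array 6 to 17. Under at least 1 alternative 38 of the 39 moved. The medians of 7 lists (spermatids, G1, Sertoli, macrophages, endothelial, lymphocytes, GDNF and FGF targets) changed sign under at least 1 alternative. Among the 300 named genes, 2 turned direction, both with quantile scaling: Rrm2 to 0.16 (adjusted p = 0.225, limma) and Nop2 to 0.088 (adjusted p = 0.279, limma). The cause was not tested. Signal over background is not known for these arrays, so genes near the lower quartile give bounds.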

Other observations

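Established GS cells did not stand where the 2 week cultures did in stromal genes. The summed signal of the 29 fibroblast genes was 28359.9 and 30402 in GS cells, 14165 and 14275 at 2 weeks and 81958 and 82340.3 at 1 week. Il1rl1 stood at 2136 in GS cells against 190.5 at 2 weeks (group means), Inhba at 1753 against 336, and Csf1 at 1156 against 236. The germ cell genes Mael and Dazl stood at 2508 and 2809 in GS cells against 3336 and 3573 at 2 weeks. These differences are given as values, and were not tested.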
